A study of Mus musculus with 6 samples.

Results

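Chemokine ligands are small secreted proteins that draw leukocytes into tissue. They were taken here as every gene whose symbol is Ccl, Cxcl, Cx3cl or Xcl followed by a number and at most 1 letter, and 38 of the 55487 genes in the files met that rule. Of these, 20 were expressed in the left ventricle of the heart at a mean of at least 0.5 TPM (a level corrected for gene length and library size) over the 6 libraries. RNA came from male C57BL/6 wildtype mice aged 8 weeks, in a study of alcoholic cardiomyopathy. The 3 ET libraries are of mice that were fed 5% ethanol over 10 days before an ethanol gavage, and the 3 CONT libraries are of mice on a control diet of equal calories that were gavaged with maltose-dextrin. The ventricle was taken 9 h after the gavage in both groups, so the ET libraries combine the effects of feeding and of a recent binge. The labels do not say that each library is a separate mouse, and p-values therefore reflect the variation among these samples alone, part of which may be technical.

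Chemokines bind receptors coupled to G proteins on leukocytes, and each receptor defines which cells a ligand attracts: CCR2 monocytes, CXCR2 neutrophils, CCR3 eosinophils, CXCR3 activated T cells and NK cells, CCR7 dendritic cells and naive T cells. Some ligands are kept at a steady level by stromal and endothelial cells, such as Cxcl12 and Ccl21, and others are switched on in inflammation through NF-kappaB or interferons, such as Cxcl1 and Cxcl9. In the heart, resident macrophages, endothelium, fibroblasts and the lymphatics are known sources of them.

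The ligands sit in clusters on the mouse genome (GRCm38), with 12 on chromosome 11, 11 on chromosome 5, 5 on chromosome 4 and 4 on chromosome 8. Promoters are shown for neighbouring pairs of genes from these clusters: Ccl6 and Ccl9, the ligands most unequal between the groups on the higher side, and Cxcl9 and Cxcl10, both ligands of CXCR3. Each is the 250 bases upstream of the RefSeq transcription start (GRCm38.p6), on the minus strand, at chr11:83593088-83593337 for Ccl6, chr11:83578637-83578886 for Ccl9, chr5:92328080-92328329 for Cxcl9 and chr5:92348890-92349139 for Cxcl10. Capitals mark matches, on either strand, to the NF-kappaB consensus or to the interferon response letters GAAANNGAA.
Ccl6: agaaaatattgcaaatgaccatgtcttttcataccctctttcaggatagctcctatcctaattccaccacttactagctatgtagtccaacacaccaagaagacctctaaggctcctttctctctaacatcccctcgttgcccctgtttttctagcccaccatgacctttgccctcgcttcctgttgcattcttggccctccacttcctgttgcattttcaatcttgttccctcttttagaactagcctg
Ccl9: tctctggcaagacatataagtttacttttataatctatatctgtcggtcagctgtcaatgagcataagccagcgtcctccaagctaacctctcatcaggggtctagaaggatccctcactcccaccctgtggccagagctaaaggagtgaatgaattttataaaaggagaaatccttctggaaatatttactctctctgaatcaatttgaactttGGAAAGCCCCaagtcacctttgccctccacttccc
Cxcl9: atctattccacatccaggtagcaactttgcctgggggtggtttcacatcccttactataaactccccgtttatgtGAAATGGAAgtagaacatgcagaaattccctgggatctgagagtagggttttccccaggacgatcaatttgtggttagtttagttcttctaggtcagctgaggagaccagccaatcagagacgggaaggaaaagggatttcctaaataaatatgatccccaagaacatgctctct
Cxcl10: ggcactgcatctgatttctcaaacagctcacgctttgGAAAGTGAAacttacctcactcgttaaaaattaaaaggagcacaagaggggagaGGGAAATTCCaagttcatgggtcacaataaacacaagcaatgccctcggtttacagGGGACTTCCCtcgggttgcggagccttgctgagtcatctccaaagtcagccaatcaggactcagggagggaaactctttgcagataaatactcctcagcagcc
Counted from the transcription start, the Ccl9 window held an NF-kappaB match at -35 to -26, and the Cxcl9 window held an interferon response match at -175 to -167. The Cxcl10 window held NF-kappaB matches at -159 to -150 and at -103 to -94, and an interferon response match at -213 to -205. The Ccl6 window held neither, and none of the marked matches overlap each other.

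RefSeq promoter windows were found for 27 of the 38 ligands, 33 windows in all, since some ligands had several. A ligand counted once if any of its windows matched, while the shares over all promoters are per window. The shares set side by side below are therefore not in the same unit. The NF-kappaB consensus was in the windows of 6 of them (22.2%: Ccl9, Ccl20, Cxcl1, Cxcl2, Cxcl3 and Cxcl10), against 3.90% of all 32817 promoter windows of that length. The interferon response letters were also in 6 of 27 (22.2%, against 7.12%). The C/EBP letters TTGCNNAA were in 4 (14.8%, against 9.57%) and the PU.1 letters GAGGAAGT in 0 (against 2.44%). These are matches of letters, and several ligands arose from copies of each other, so their windows are not independent.

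The libraries held 28838386 to 37762233 expected counts, and the ligands took 0.0221% to 0.0494% of them. Markers of heart muscle cells were high throughout in CPM (counts scaled to the size of each library and not corrected for gene length). The sum over 8 cardiomyocyte genes was lowest in ET replicate 1, at 31879 CPM, against 49515 to 59526 elsewhere. A pair of libraries stood apart: the sum over 5 atrial genes was 8818 CPM in ET replicate 1 and 1539 in CONT replicate 3, against 58.8 to 333 in the other 4. In ET replicate 1 the sums of 10 macrophage genes (534 CPM, against 197 to 226 elsewhere), 7 fibroblast genes (1739, against 578 to 724) and 7 mesothelial genes (189.6, against 7.69 to 30.8) were also the highest. ET replicate 3 was the highest for 8 neutrophil genes (46.9 CPM, against 1.70 to 7.97) and 6 hepatocyte genes (91.7), with ET replicate 1 next in the latter (84.2, against 4.10 to 9.91). The libraries were divided by the sign of the first principal component of their effective gene lengths. Set 1 held CONT replicates 1 and 2 and ET replicate 1, and set 2 the other 3. The component ran in steps from -0.503 to 0.586, with ET replicate 1 (-0.199) and CONT replicate 3 (0.187) nearest the cut. The sets are thus a division made here and not a batch named in the labels. Values below are given in the order of replicates 1, 2 and 3, which are names only.

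A mean of at least 1 TPM was reached by 18 ligands, and by 27 at 0.1. The order by mean TPM over the 6 libraries began with Cxcl12 at 53.5, Ccl6 at 34.3, Ccl21a at 26.3 and Ccl9 at 11.9. Ccl27a and Cxcl14 followed at 9.76 and 9.47, and then Cxcl16 at 5.25, Ccl21b at 3.78 and Ccl11 at 3.53. The other 11 expressed ligands lay between 0.60 and 3.21. Just inside the limit of 0.5 were Ccl8 at 0.853 and Cxcl13 at 0.603, and just outside were Ccl5 at 0.457 and Cxcl10 at 0.330. Neighbours in this order mostly overlapped in their libraries: Ccl6, second by its mean, ranged from 8.34 to 115 TPM, and Cxcl12 from 26.2 to 82.8. Reads of Ccl21a were split by estimation with near-identical copies, treated below. Ccl21a alone had 1152, 462 and 720 counts in CONT and 1139, 341 and 378 in ET. With the copies the counts were 1641, 769 and 1025 in CONT and 1746, 493 and 627 in ET. Its place in the order may therefore be too low.

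**Figure D1:**
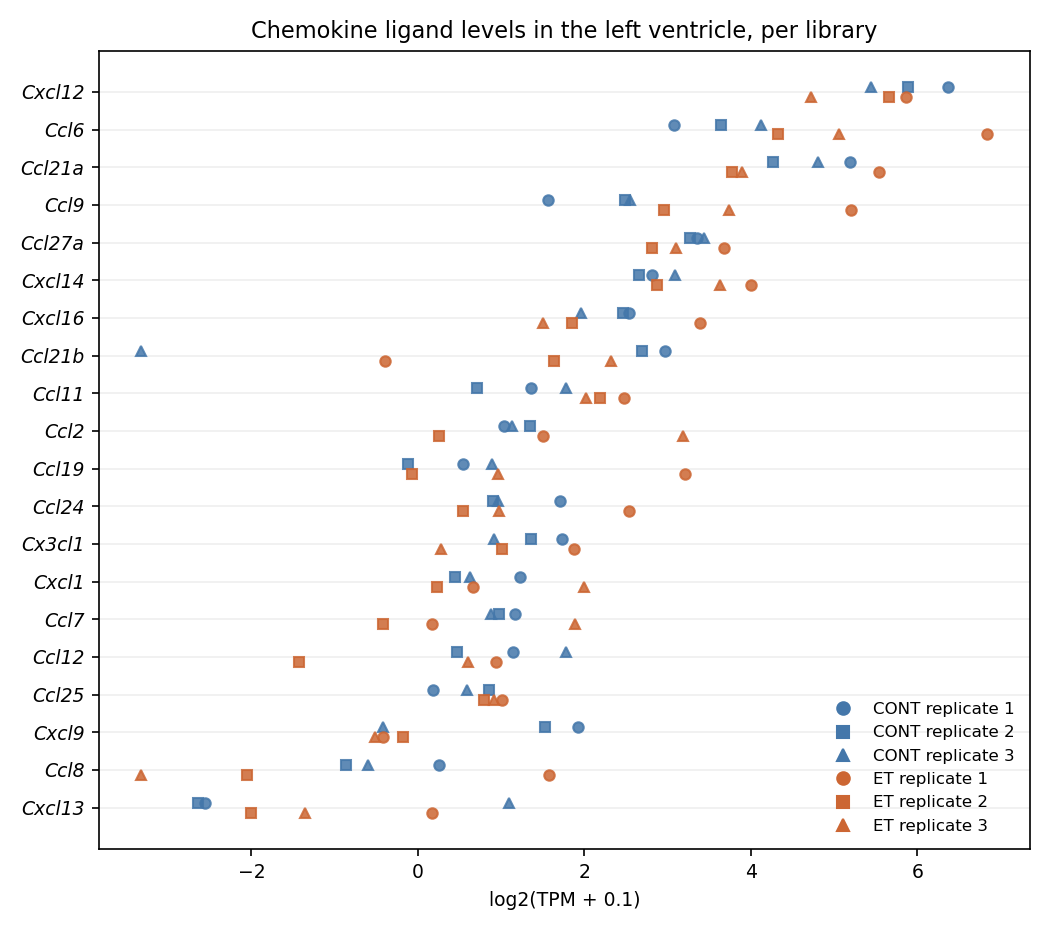
Levels of the 20 expressed chemokine ligands, ordered by mean TPM, as log2(TPM + 0.1) in each of the 6 libraries (blue, CONT; orange, ET; the symbol shape gives the replicate). Ccl6, Ccl9 and Ccl11 are higher in every ET library than in every CONT library, and ET replicate 1 gives the highest point for most of the leading ligands other than Cxcl12.

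Summed over all 38 ligands, the TPM was 187, 144 and 140.4 in CONT and 336, 128 and 147 in ET. The groups overlapped, and ET replicate 1 alone was high. Cxcl12 made up 44.3%, 41.1% and 31% of that sum in CONT and 17.4%, 39.5% and 17.9% in ET. Ccl6 and Ccl9 together made up 5.98%, 12.4% and 16.5% in CONT and 45.1%, 21.5% and 31.8% in ET, so that every ET library had a larger share than every CONT library. The most abundant ligand was Cxcl12 in the 3 CONT libraries and in ET replicate 2, and Ccl6 in ET replicates 1 and 3. Without Ccl6 and Ccl9 the sum was 176, 127 and 117 TPM in CONT and 184, 100.4 and 99.9 in ET. Shares of a sum are tied to each other, since a larger share of 1 ligand lowers those of the rest. The sum leaves out copies of Ccl21a that the symbol rule does not cover, which held part of its reads.

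**Figure D2:**
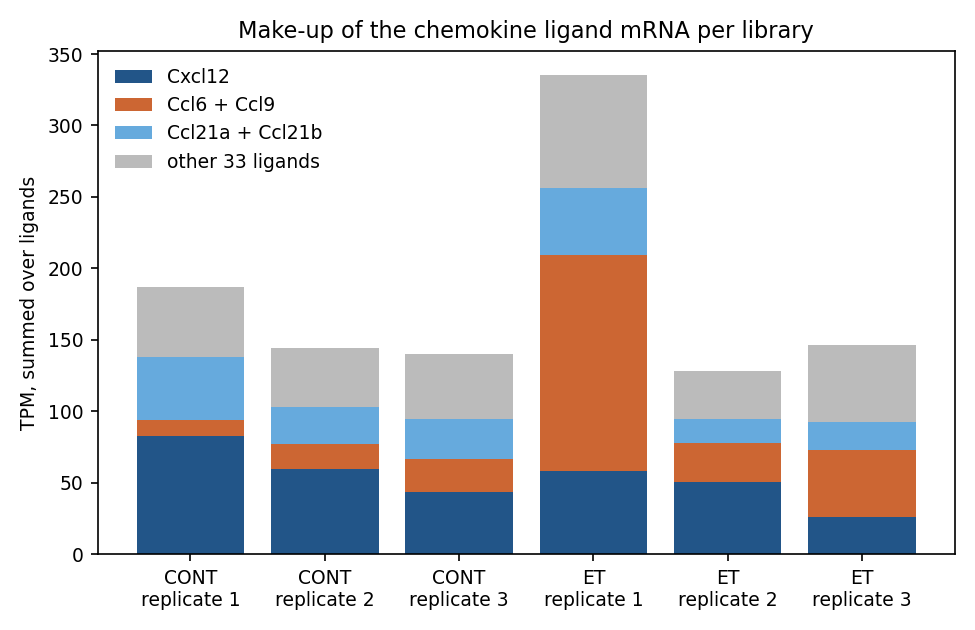
Summed TPM of the 38 chemokine ligands in each library, split into Cxcl12, Ccl6 with Ccl9, Ccl21a with Ccl21b, and the 33 others. The part of Ccl6 with Ccl9 is larger in all 3 ET libraries than in any CONT library, and the whole column is tallest in ET replicate 1. Reads assigned to near-identical copies of Ccl21a outside the symbol rule are left out.

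The comparison of ET with CONT asks whether ethanol feeding with a binge altered these ligands in the ventricle. Enough counts for the test were found in 19 ligands, and 0 passed an adjusted p of 0.05 (edgeR, quasi-likelihood, adjusted by Benjamini-Hochberg over all 15727 tested genes). The number that passed among all genes was also 0 (0.0%). At an unadjusted p under 0.05 there were 4 of 19 (21.1%), against 8.65% of all tested genes. Those 4 were Ccl6, Ccl9 and Ccl11, higher in ET, and Cxcl9, lower, and they were also the 4 whose CPM did not overlap between the groups (21.1%, against 15.2% of all tested genes). The 3 higher ones stand against a background of 6.89% and the 1 lower one against 8.36%. In TPM 3 ligands did not overlap (background 15.6%), since Cxcl9 did. The median log2 fold change over the 19 was -0.17, with 9 above and 10 below 0, and over all tested genes it was 0.01, with 8160 above and 7567 below. Both counts moved with single libraries, and so did those over all genes. At an unadjusted p under 0.05 there were 2 of 19 ligands without CONT replicate 1 (3.48% of all genes), 8 of 22 without CONT replicate 3 (11.7%), 7 of 21 without ET replicate 1 (16.3%) and 10 of 20 without CONT replicate 3 and ET replicate 1 (27.7%). The CPM did not overlap in 4 of 19 without CONT replicate 1 (19.0% of all genes), in 8 without CONT replicate 3 (34.4%) and in 11 without that pair (60.5%). Only without that pair was the share of the ligands no larger than over all genes. DESeq2 called 2 of the 19, Ccl6 and Cxcl9, against 1.18% of all genes. Without CONT replicate 3 and ET replicate 1, edgeR called 2, Cxcl9 and Cxcl16, against 5.27% of 15714 genes. In that comparison CONT is left with set 1 libraries and ET with set 2 libraries, and group and set cannot be told apart.

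**Figure D3:**
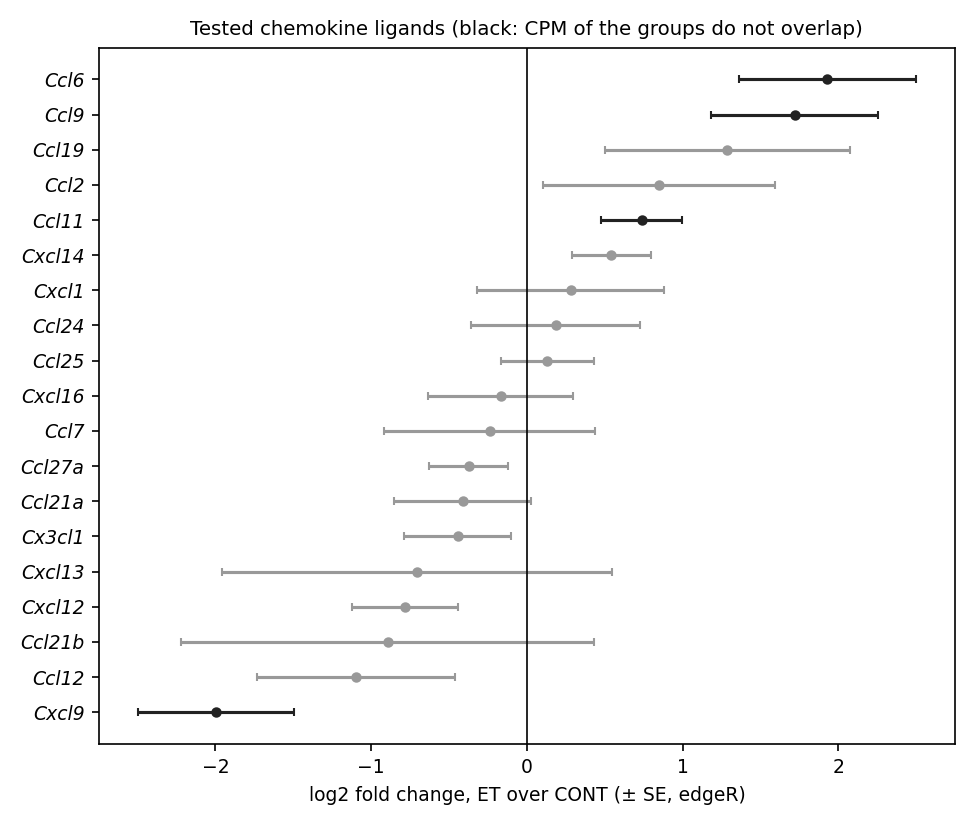
Log2 fold change (ET over CONT) of the 19 tested chemokine ligands from edgeR, with bars of 1 SE; black points are ligands whose CPM did not overlap between the groups. They run from Cxcl9 at -1.99 to Ccl6 at 1.93, none of them past an adjusted p of 0.05.

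Ccl6 and Ccl9, mouse CC chemokines of myeloid cells that act on CCR1, had the largest positive differences between ET and CONT of the 19 tested ligands. Ccl6 was at 9.03, 14.3 and 16.8 CPM in CONT and at 96.2, 19.6 and 36.8 CPM in ET. Every ET library exceeded every CONT library, with ET replicate 1 far above the rest and ET replicate 2 close to CONT replicate 3. The means were 13.4 ± 3.96 and 50.8 ± 40.2 CPM (SD, n = 3 per group), a log2 fold change of 1.93 ± 0.57 (SE) with an unadjusted p of 0.0115 and an edgeR adjusted p of 0.508. Ccl9, its neighbour, was at 5.67, 9.29 and 7.84 CPM in CONT and at 46.0, 9.76 and 19.1 CPM in ET. It showed the same order of ET libraries, and ET replicate 2 was barely above CONT replicate 2. The means were 7.60 ± 1.82 and 24.9 ± 18.8 CPM (SD, n = 3 per group), with a log2 fold change of 1.72 ± 0.54 (SE), an unadjusted p of 0.0147 and an edgeR adjusted p of 0.515.

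Ccl6 (ENSMUSG00000018927) lies on chromosome 11 at 83587882 to 83593087 and Ccl9 (ENSMUSG00000019122) at 83572919 to 83578636 on the same minus strand, 9245 bases apart. The ratio of Ccl6 to Ccl9 counts was 1.59, 1.54 and 2.14 in CONT and 2.09, 2.01 and 1.93 in ET, so that the pair differed between libraries by far more than their ratio did. With ET replicate 1 left out, the log2 fold change was 1.09 for Ccl6 (adjusted p 0.270) and 0.94 for Ccl9 (adjusted p 0.272), and without ET replicate 2 it was 2.31 and 2.10. In DESeq2 Ccl6 had 1.94 ± 0.53 (SE) with an adjusted p of 0.0308, within a range of 0.0308 to 0.999 over its alternatives. The differences between ET and CONT within the library sets, on log2(CPM + 0.5), were 3.03 and 0.66 for Ccl6 and 2.58 and 0.77 for Ccl9, the first resting on ET replicate 1 alone and the second on CONT replicate 3 alone.

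Macrophage markers were also highest in ET replicate 1, as given above. Their sum was 208, 197 and 224 CPM in CONT and 534, 215 and 226 in ET, so ET replicates 2 and 3 were near the CONT libraries. Of 10 such genes, 10 had a higher fitted level in ET (51.9% of all tested genes did), 3 had an unadjusted p under 0.05 (Lyve1, Cd163 and Mrc1, against 8.65%), and 2 did not overlap between the groups, a share near the 15.2% of all genes. Lyve1, a hyaluronan receptor of resident macrophages and lymphatics, was at 16.8, 22.2 and 28.1 CPM in CONT and 112, 35.3 and 42.3 in ET, and C1qa, a complement subunit made by macrophages, was at 44.4, 43.3 and 40.6 against 94.7, 38.5 and 36.4. Per 100 CPM of the summed macrophage markers, Ccl6 was at 4.35, 7.27 and 7.5 CPM in CONT and 18.0, 9.12 and 16.3 in ET, still without overlap, and Ccl9 was at 2.73, 4.72 and 3.50 against 8.61, 4.54 and 8.44, with ET replicate 2 below CONT replicate 2. Neutrophil markers, led by S100a9 and S100a8, were highest in ET replicate 3, where Ccl6 and Ccl9 were second. The sum of the 6 hepatocyte genes was 4.10, 4.53 and 9.91 CPM in CONT and 84.2, 6.35 and 91.7 in ET. It was thus high in ET replicates 1 and 3, the libraries with the most Ccl6 and Ccl9. The part of any of these cell types in these ligands was not tested. In bulk tissue more cells of a type and more RNA per cell cannot be told apart.

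The related inflammatory CC ligands Ccl3, Ccl4 and Ccl5 were scarce. Ccl5, made by T cells, NK cells and macrophages, had 13, 10 and 5 counts in CONT and 5, 4 and 5 in ET. Ccl3 had 1, 3 and 1 counts against 7, 8 and 3, and Ccl4 had 0, 2 and 1 against 3, 5 and 1. All 3 fell below the filter of the main test. Fitted without a filter, they had log2 fold changes of -1.04 for Ccl5, 1.65 for Ccl3 and 1.35 for Ccl4 (edgeR adjusted p 0.705 each), and without CONT replicate 3 Ccl5 had -1.37 (unadjusted p 0.0309, adjusted p 0.396). The receptor gene Ccr1 was low and was higher in all 3 ET libraries, with 0.547, 0.899 and 0.769 CPM in CONT and 2.69, 1.24 and 2.38 in ET. Its log2 fold change was 1.51 ± 0.40 (SE), with an unadjusted p of 0.00647 and an edgeR adjusted p of 0.478. It was 1.31 without ET replicate 1 (adjusted p 0.269).

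Cxcl9, which interferon-gamma induces and which attracts activated T cells through CXCR3, was the ligand furthest below CONT. It was at 5.56, 7.04 and 1.75 CPM in CONT and at 1.41, 1.06 and 1.11 CPM in ET. The ET libraries lay close together, while CONT replicate 3 was near them and the other CONT libraries were several-fold higher. The means were 4.78 ± 2.73 and 1.19 ± 0.193 CPM (SD, n = 3 per group), with a log2 fold change of -1.99 ± 0.50 (SE), an unadjusted p of 0.00523 and an edgeR adjusted p of 0.478. In TPM the values were 3.69, 2.79 and 0.65 in CONT and 0.65, 0.78 and 0.60 in ET, so that on this scale CONT replicate 3 fell within the ET range. DESeq2 gave -1.99 ± 0.52 (SE; adjusted p 0.0186), and edgeR without CONT replicate 3 and ET replicate 1 gave -2.51 ± 0.26 (SE; adjusted p 0.0166), within a range of 0.0166 to 0.999 over its alternatives. Smaller values came from the term for the library sets (-1.44) and from limma-trend on log2 TPM with a pseudocount of 0.1 (-1.38) or 1 (-0.88), none of which passed. Leaving out single libraries gave -1.60 to -2.38, and within the library sets the differences were -1.82 and -0.51 on log2(CPM + 0.5).

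Cxcl9 (ENSMUSG00000029417) lies on chromosome 5 at 92321347 to 92328079, 18558 bases from Cxcl10 (92346638 to 92348889), on the minus strand. Cxcl10, induced by interferons and NF-kappaB, had 12, 22 and 4 counts in CONT and 7, 6 and 2 in ET. CONT replicates 1 and 2 held the most, as for Cxcl9, and CONT replicate 3 fell among the ET libraries. It fell below the filter of the main test, and 5.9% of the exon bases of Cxcl10 overlap Art3 on the opposite strand. Cxcl11, which GENCODE vM21 marks as a polymorphic pseudogene and not as a protein-coding gene, was at 0 in all 6 libraries. Cxcr3, the receptor, was not tested, with 0.00 to 0.213 CPM, and the sum of 9 T and NK cell genes was 1.78 to 2.17 CPM in CONT and 0.81 to 2.75 in ET. Of 11 interferon signalling factors, 3 had a higher fitted level in ET (27.3%, against 51.9% of all tested genes) and 8 a lower one, with a median of -0.37. At an unadjusted p under 0.05 there were 0 (against 8.65%), and 1 did not overlap, lower in ET (9.1%, against 15.2%). Ifng, the inducing cytokine, was at 0 in every library.

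**Figure D4:**
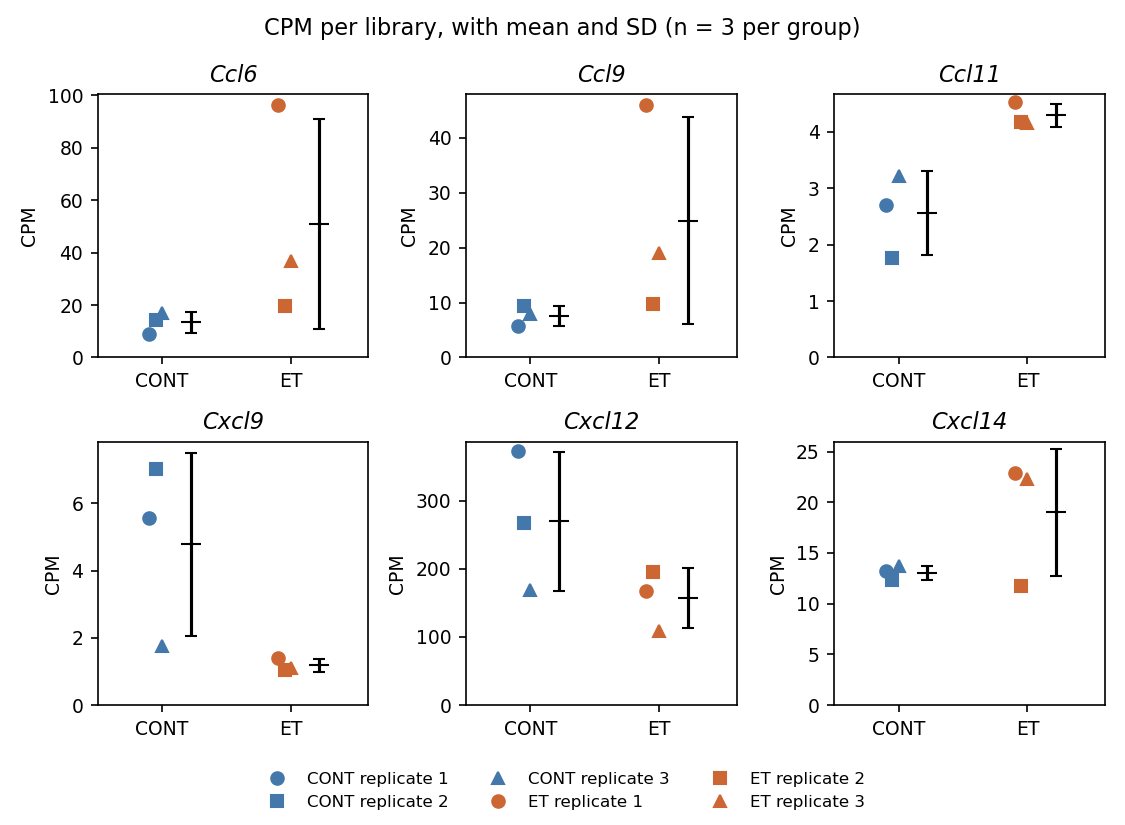
CPM of 6 ligands in each library by group, with the mean and SD (n = 3 per group) beside the points; each panel has its own axis from 0. Ccl6, Ccl9 and Ccl11 lie higher and Cxcl9 lower in all 3 ET libraries, and Cxcl12 and Cxcl14 overlap.

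Cxcl12, which holds and guides CXCR4-bearing cells and is made by endothelium and stroma, was the most abundant ligand. It was at 373, 267 and 168 CPM in CONT and at 167, 195 and 108 CPM in ET. The groups overlapped through CONT replicate 3, and no ET library reached CONT replicates 1 and 2. The means were 269.5 ± 102 and 157 ± 44.1 CPM (SD, n = 3 per group), with a log2 fold change of -0.78 ± 0.34 (SE), an unadjusted p of 0.0557 and an edgeR adjusted p of 0.573. Cxcl12 (ENSMUSG00000061353, chromosome 6, 117168535 to 117181367, plus strand) had differences of -0.92 and -0.21 within the library sets. Its receptor Cxcr4 was at 6.51, 7.27 and 2.28 CPM in CONT and at 2.45, 1.38 and 1.63 in ET, with CONT replicate 3 among the ET libraries. Its log2 fold change was -1.55 ± 0.46 (SE; unadjusted p 0.0121, edgeR adjusted p 0.515). Ackr3, a scavenging receptor for Cxcl12 and the most abundant receptor of the family here, was at 53.3, 59.7 and 51.6 CPM against 69.5, 51.7 and 74.1 (edgeR adjusted p 0.661). The sum of 6 endothelial markers was 1107, 999.8 and 577 CPM in CONT and 862, 737 and 538 in ET, lowest in CONT replicate 3 and ET replicate 3, which also had the lowest Cxcl12 of their groups. Its part in these values was not tested.

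Cxcl14, a ligand found in many tissues without inflammation, was at 13.2, 12.3 and 13.7 CPM in CONT and at 22.9, 11.8 and 22.3 CPM in ET. The CONT libraries were within a narrow range, ET replicate 2 lay below them and the other ET libraries above. The log2 fold change was 0.54 ± 0.25 (SE), with an edgeR adjusted p of 0.577. Cxcl13, which draws B cells through CXCR5, was at 0.0821, 0.0749 and 2.10 CPM in CONT and at 0.907, 0.147 and 0.326 in ET. It was thus high in CONT replicate 3 and ET replicate 1, the libraries with the most atrial and mesothelial marker RNA. Its log2 fold change was -0.71 ± 1.25 (SE, edgeR adjusted p 0.863), but 2.51 ± 0.98 without CONT replicate 3 (adjusted p 0.420), so that 1 library sets its direction. The sum of 5 B cell markers was 7.72, 6.78 and 3.88 CPM in CONT and 7.28, 4.94 and 1.79 in ET, in another order. Cxcl17 had 12 counts in ET replicate 1 and 0 or 1 in each of the others.

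Eotaxins attract eosinophils through CCR3, and Ccl11, the main one of stromal cells, was the only one whose groups did not overlap. Ccl11 was at 2.71, 1.76 and 3.23 CPM in CONT and at 4.53, 4.17 and 4.17 CPM in ET. The ET libraries lay close to each other, ET replicate 1 included. The means were 2.57 ± 0.743 and 4.29 ± 0.209 CPM (SD, n = 3 per group), with a log2 fold change of 0.74 ± 0.26 (SE), an unadjusted p of 0.0248 and an edgeR adjusted p of 0.529. Leaving out single libraries gave 0.54 to 0.95, and within the library sets the differences were 0.90 and 0.33. Ccl11 (ENSMUSG00000020676) lies on chromosome 11 at 82057823 to 82062955 (plus strand), in the same cluster as the CCR2 ligands. Ccl24, an eotaxin of macrophages, was at 2.03, 1.05 and 0.917 CPM in CONT and at 2.64, 0.794 and 1.11 in ET, which overlapped (log2 fold change 0.19 ± 0.54, SE, edgeR adjusted p 0.925). Ccl26 was at 0 throughout, and Ccr3 had a count in CONT replicate 2 alone.

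The ligands of CCR2, which recruit monocytes, overlapped between the groups. Ccl2, the main one, was at 1.70, 2.13 and 1.54 CPM in CONT and at 1.68, 0.794 and 7.23 in ET. Ccl7 was at 1.70, 1.53 and 1.21 CPM in CONT and at 0.613, 0.441 and 2.73 in ET. Both were highest in ET replicate 3 and lowest in ET replicate 2, with log2 fold changes of 0.85 ± 0.74 and -0.24 ± 0.68 (SE; edgeR adjusted p 0.715 and 0.922). Ccl12 was at 1.04, 0.674 and 1.48 CPM in CONT and at 0.693, 0.118 and 0.683 in ET (log2 fold change -1.09 ± 0.64, SE, edgeR adjusted p 0.620). Ccl8, which lies next to Ccl12 on chromosome 11, had 19, 6 and 8 counts in CONT and 39, 2 and 0 in ET. These were too few for the test, although the mean TPM of Ccl8 was above 0.5. Ccr2 itself was at 1.78, 1.91 and 2.04 CPM against 3.44, 1.53 and 1.33 (edgeR adjusted p 0.922).

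Ligands of CXCR2, which recruit neutrophils, were low. Cxcl1 was at 2.68, 1.46 and 1.21 CPM in CONT and at 1.2, 1.12 and 4.23 in ET. It was highest in ET replicate 3, the library with the most neutrophil marker RNA, and its log2 fold change was 0.28 ± 0.60 (SE, edgeR adjusted p 0.890). Cxcl2 had 1 to 5 counts per library, and Cxcl5 had 2, 4 and 2 in CONT and 16, 5 and 1 in ET. Cxcl3 and Cxcl15 were at 0 in all 6 libraries. Ccl2, Ccl7 and Cxcl1 thus shared their highest library, ET replicate 3. That library was the highest for 15.8% of the 19 tested ligands, below the 23.9% of all tested genes.

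Ccl21 and Ccl19 guide dendritic cells and T cells through CCR7, and Ccl21 is made by lymphatic endothelium. Ccl21a was at 31.5, 17.3 and 21.3 CPM in CONT and at 30.4, 10.0 and 12.3 in ET, which overlapped (log2 fold change -0.41 ± 0.44, SE, edgeR adjusted p 0.766). Without ET replicate 1 it was -1.05 (unadjusted p 0.00551, adjusted p 0.264), and without CONT replicate 1 it was -0.13. Ccl21b was at 6.71, 5.77 and 0 CPM in CONT and at 0.427, 2.23 and 4.07 in ET. Its transcript is identical over 402 aligned bases to those of Gm10591, Gm13304 and Gm21541, and 99.5% identical to Ccl21a, so the reads were split by estimation. Gm10591 held the same 244.7, 153.7 and 0.01 counts in CONT and 16.3, 75.8 and 124.7 in ET as Ccl21b. Gm21541 held 305 counts in CONT replicate 3 and 575 in ET replicate 1, the libraries where Ccl21b held the fewest. No direction can be read from Ccl21b alone. Summed over the 5 genes, the level was 44.9, 28.8 and 30.3 CPM in CONT and 46.6, 14.5 and 20.4 in ET, with a log2 fold change of -0.35 ± 0.43 (SE, edgeR adjusted p 0.793). ET replicates 2 and 3 were below every CONT library and ET replicate 1 was above them.

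**Figure D5:**
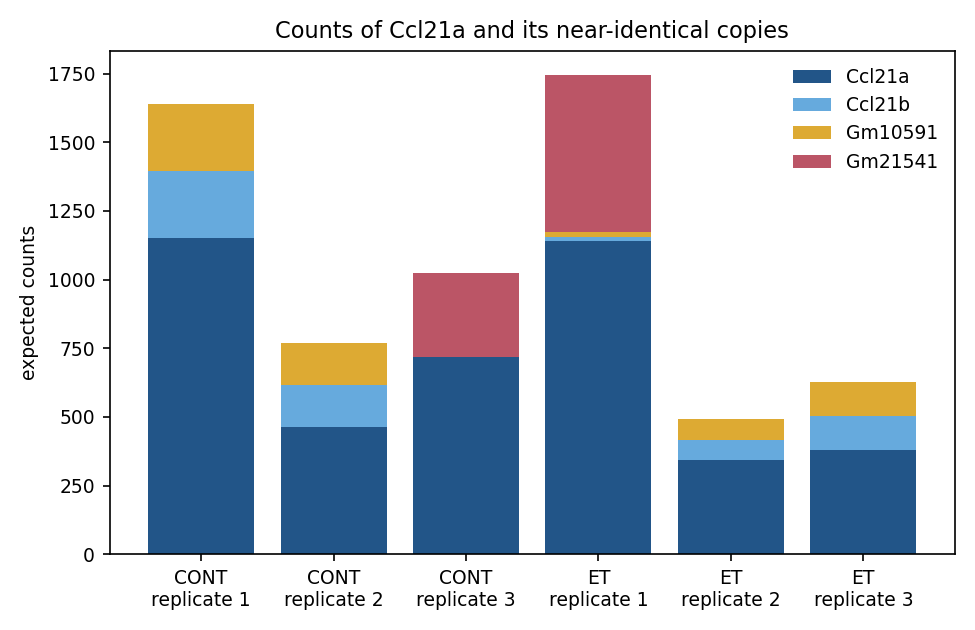
Expected counts assigned to Ccl21a and to its near-identical copies in each library, stacked (Gm13304 was at 0 and is not drawn). The copy that receives counts changes between libraries, with Gm21541 filled only in CONT replicate 3 and ET replicate 1, so the height of the whole column is the value to compare.

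The sum of 5 lymphatic markers was 69.5, 74.2 and 73.0 CPM in CONT and 108, 83.0 and 89.0 in ET, higher in each ET library, an order that Ccl21a did not follow. Ccl19 was at 0.876, 0.562 and 1.01 CPM in CONT and at 4.40, 0.441 and 1.14 in ET. Only ET replicate 1 stood out, and the log2 fold change was 1.29 ± 0.79 (SE, edgeR adjusted p 0.631), or 1.40 ± 0.80 with its 4 near-identical loci added (adjusted p 0.612). Ccl27a, a CCR10 ligand known from skin, was at 5.17, 5.21 and 4.38 CPM in CONT and at 4.99, 2.73 and 3.65 in ET, with ET replicate 1 inside the CONT range (log2 fold change -0.38 ± 0.25, SE, edgeR adjusted p 0.653). Summed with its copies, Ccl27b included, the value was -0.36 ± 0.28 (adjusted p 0.694). Ccl25, known from thymus and gut, was at 1.53, 1.80 and 1.72 CPM in CONT and at 2.21, 2.03 and 1.27 in ET (0.13 ± 0.30, SE, edgeR adjusted p 0.899), and 4 of 7 thymus markers were at 0 in all libraries, with a sum of at most 0.16 CPM. Ccl28, a ligand of mucosal tissues, had 4, 2 and 5 counts in CONT and 12, 3 and 3 in ET.

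Cxcl16 and Cx3cl1 are made as membrane-anchored proteins that proteases of the ADAM family release. Cxcl16, the ligand of CXCR6, was at 12.2, 11.6 and 6.78 CPM in CONT and at 16.1, 6.03 and 5.01 in ET. ET replicate 1 was the highest of all and ET replicates 2 and 3 the lowest, with a log2 fold change of -0.17 ± 0.47 (SE, edgeR adjusted p 0.919). Without CONT replicate 3 and ET replicate 1 it was -1.08 ± 0.17 (SE, edgeR adjusted p 0.0297, in a range of 0.0297 to 1.0 over all alternatives), and 18.3% of its exon bases overlap Zmynd15 on the opposite strand. Cx3cl1, or fractalkine, which endothelial cells present to monocytes, was at 10.8, 7.79 and 5.53 CPM in CONT and at 8.16, 5.79 and 3.74 in ET (log2 fold change -0.44 ± 0.34, SE, edgeR adjusted p 0.689). Its receptor Cx3cr1 was at 2.60, 3.03 and 1.09 CPM in CONT and at 1.65, 1.47 and 0.879 in ET (-0.74 ± 0.45, SE, edgeR adjusted p 0.628). Of the releasing enzymes, Adam10 was at 37.0, 35.0 and 28.8 CPM in CONT and 43.0, 33.5 and 27.9 in ET.

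Ligands below the expression limit but with a count in at least 1 library numbered 12. Besides those named above they were Ccl17 and Ccl22, which act on CCR4, with 0 to 6 counts per library, and Xcl1 and Ccl27b, with at most 1.45. Ccl22 had 3, 4 and 6 counts in CONT and 2, 0 and 0 in ET. A further 6 were at 0 in all libraries: Ccl1, Ccl20, Ccl26, Cxcl3, Cxcl11 and Cxcl15. A count of 0 allows up to 3 counts, or 0.0794 to 0.104 CPM per library, and covers counting error only. Between 28 and 31 ligands had a count in any 1 library. Among the 19 tested, ET replicate 1 was the highest library for 8 (42.1%, against 25.5% of all tested genes), and ET replicate 2 was the lowest for 10 (52.6%, against 14.0%).

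Of 23 listed chemokine receptors, 12 were tested, and 0 passed the adjusted test. A higher fitted level in ET was found in 9 (75.0%, against 51.9% of all tested genes) and a lower one in 3. The median log2 fold change was 0.37, 3 had an unadjusted p under 0.05 (25.0%, against 8.65% of all genes) and 2 did not overlap in CPM, Ccr1 and Cxcr6 (16.7%, against 15.2%). The 3 were Ccr1 and Cxcr4, given above, and Ccrl2, a receptor that binds chemerin without signalling, at 7.83, 8.80 and 10.4 CPM in CONT and at 9.44, 16.3 and 13.8 in ET (0.55 ± 0.23, SE, edgeR adjusted p 0.572). Without CONT replicate 3 and ET replicate 1, Cxcr4 (-2.17, adjusted p 0.0166) and Ccrl2 (0.88, adjusted p 0.0372) passed, in a fit that called 5.27% of all genes. With the term for the library sets they were at -1.06 and 0.36 (adjusted p 0.420 and 0.502). Cxcr6 held 0 to 0.326 CPM, too little to read a difference from. Cxcr2 was at 0.0547, 0.300 and 0.444 CPM in CONT and at 0.267, 0.176 and 1.5 in ET, highest in ET replicate 3 as its ligand Cxcl1 was.

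The genes known to switch inflammatory ligands on gave little. Of 9 inducing cytokines, 1 had enough counts for the test, and 4 (Ifng, Ifnb1, Il13 and Il17a) were at 0 in every library. Tnf was at 0.438, 0.637 and 0.296 CPM in CONT and at 0.160, 0.0882 and 0.163 in ET. Every ET library was below every CONT library, as for 8.36% of all tested genes, but Tnf was too low for the test. Il1b, the tested one, was at 0.164, 0.487 and 0.888 CPM in CONT against 0.107, 0.0294 and 1.27 in ET (edgeR adjusted p 0.974). Of 14 NF-kappaB factors and feedback inhibitors, 9 had a higher fitted level in ET (64.3%, against 51.9% of all tested genes) and 5 a lower one. The median log2 fold change was 0.08, with 0 at an unadjusted p under 0.05 (against 8.65%). Nfkbia, an inhibitor that NF-kappaB itself induces, was at 47.1, 30.4 and 30.1 CPM in CONT and at 48.5, 42.6 and 47.6 in ET (edgeR adjusted p 0.607). Pf4, a platelet CXC chemokine outside the symbol rule, was at 8.15, 7.0 and 7.19 CPM in CONT and at 12.9, 3.97 and 5.70 in ET.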

How the data were processed

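Bulk RNA sequencing of the left ventricle gave 6 libraries, 3 per group by the source labels. The submitters' processing notes name STAR 2.7.0f, RSEM 1.2.31 and mm10. Which annotation was used, and whether counting used strand, is not given in the sources used here. The authors deposited expected counts (estimated, not normalized), and TPM and FPKM per library, per the file headers. For the count tests the expected counts were rounded. TPM served for levels between genes, and FPKM with expected counts for the effective gene length.

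Genes were kept by filterByExpr (minimum count 10, minimum total 15), and CPM were scaled by TMM factors (0.920 to 1.19). The groups were compared with edgeR (quasi-likelihood test, robust, two-sided, no covariate), with Benjamini-Hochberg adjustment over all 15727 genes at 0.05. Alternatives were RLE and upper-quartile factors, DESeq2, limma-voom, no filter, a stricter filter (3 libraries at a CPM of 1 or more), leaving out libraries, a term for the library sets, and limma-trend with a pseudocount of 0.1 or 1 on log2 TPM where the mean TPM reached 0.5. Library sets came from the sign of the first principal component (47.9% of the variance) of log2 effective length over 8129 genes with at least 200 counts. Summing near-identical copies (at least 95% over 200 bases), overlap in TPM and overlap without libraries were added after seeing the data. Scripts were tested on simulated data.

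The members and lists were chosen with earlier results of these data known. Every ligand is accounted for; those of a mean TPM of at least 1 are given in every library, other tested ones where the unadjusted p is under 0.05 or the groups do not overlap, and of other lists at most 3 members by mean CPM and those of unadjusted p under 0.05. Cxcl13, the low ligands given by count, and the further receptors, cytokines and markers in the text were named after their values were seen. Some members of the lists are not reported here by name. Coordinates come from GENCODE vM21 (GRCm38) and promoters from RefSeq. Software was Python 3.11.15 with pandas 2.3.3 and matplotlib 3.10.9, and R 4.3.3 with DESeq2 1.42.0, edgeR 4.0.16 and limma 3.58.1.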

Additional observations from a re-analysis of the deposited data

How the results depend on the processing

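No paired analysis was possible because the replicate numbers were given in accession order and do not link samples across groups. The number of genes called was 0, but 185 with DESeq2, 2 with limma-trend on log2(TPM + 0.1), 1 on log2(TPM + 1), and 828 without CONT replicate 3 and ET replicate 1. The number of ligands called was 0, but 2 with DESeq2 and 2 without that pair, and of receptors 0, but 2 without that pair. Ligands at an unadjusted p under 0.05 numbered 4 (8.65% of all genes), 10 (27.7%) without the pair, and, without single libraries, 2 (3.48%, without CONT replicate 1) to 8 (11.7%, without CONT replicate 3), with 7 (16.3%) without ET replicate 1. Ligands that did not overlap numbered 4 (15.2%), 11 (60.5%) without the pair, and, without single libraries, 4 (19.0%, without CONT replicate 1) to 8 (34.4%, without CONT replicate 3). The cause of these shifts was not tested. Overlap counts with libraries left out compare fewer libraries. Without single libraries 19 to 20 ligands were expressed.

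Of 304 log2 fold changes of the 19 tested ligands under alternatives, 282 kept direction and side of the threshold, 4 passed it and 18 turned direction, and 10 of the 19 ligands never turned. Those that turned were Cxcl16 (0.08 with the set term, -0.86 to 0.11 without single libraries, and -1.08, now past the threshold, without the pair), Ccl21b (0.95 with limma-voom, 0.41 with limma-trend on log2(TPM + 0.1), 0.17 with the set term), Cxcl13 (0.46 with limma-voom, 0.3 with limma-trend on log2(TPM + 0.1), -1.68 to 2.51 without single libraries), Ccl24 (-0.68 without the pair, -0.48 to 0.63 without single libraries), and, without single libraries, Ccl2 (-0.53 to 1.31), Ccl19 (-0.04 to 1.75), Cxcl1 (-0.63 to 0.71), Ccl7 (-1.49 to 0.17) and Ccl25 (-0.01 to 0.33). The library whose absence turned the direction was ET replicate 3 for Ccl2 and Cxcl1, ET replicate 1 for Ccl19 and Ccl25, ET replicate 1 or 2 for Ccl7, ET replicate 2 or 3 for Cxcl16, CONT replicate 3 for Cxcl13, and CONT replicate 3 or ET replicate 1 for Ccl24. Among the ligands that never turned, besides those in the report, some moved by over 1.5 times: Cxcl12 to -0.47 without CONT replicate 1, Cx3cl1 to -0.73 without ET replicate 1 and -0.17 without CONT replicate 1, Ccl27a to -0.61 without ET replicate 1 and -0.19 without ET replicate 2, and Ccl12 to -0.63 without ET replicate 2. The cause was not tested. The 12 low ligands held at most 22 counts in any library (Cxcl10 in CONT replicate 2), which leaves little to read a difference from.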
